A study of Mus musculus with 12 samples.

Results

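The comparison described here sets induced MEL cells that carry a knockdown of LDB1 and express an LDB1 construct called delta 4/5 against induced MEL cells labelled as control. It uses 6 of the 12 libraries of the series, 3 of the line with the construct (delta45 below) and 3 of the control cells, which were taken by their group labels. MEL is a mouse erythroleukemia cell line, and all 12 libraries were made from polyadenylated RNA of induced cells. The remaining libraries, 3 from cells with the knockdown alone (KD) and 3 from knockdown cells with a full-length Ldb1 construct (FL), are given beside the results where they help to place a value. The delta45 cells therefore differ from control cells by the knockdown, the construct and whatever else sets the lines apart, and these cannot be told apart in this comparison. The labels do not say what the control cells carry, if anything, what the construct's promoter is, whether a line is 1 clone, how long the cells were induced or with what agent, or whether separate cultures gave the 3 libraries of each group. The p-values therefore measure only the spread between libraries of a group, which may be technical. For the tests of single genes that spread was estimated over all 12 libraries, KD and FL included.

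LDB1 does not bind DNA itself. In erythroid cells it is carried to GATA and E-box sites by GATA1, TAL1 and LMO2, and through its self-association domain it brings enhancers such as the locus control region of the beta-globin genes into contact with promoters. Induced MEL cells switch on globin, heme and red cell membrane genes and slow their growth, so those genes, the members of the complex and the genes of growth and metabolism are the groups described below.

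Gene-assigned reads numbered 12377929 to 20464959 per delta45 library and 9168258 to 16685173 per control library. Levels are given as CPM, counts per 1000000 gene-assigned reads after TMM scaling, as mean ± SD with n = 3 libraries a group. Changes are log2 ratios of delta45 over control with their SE, from an edgeR quasi-likelihood model of all 12 libraries. A gene is called changed at a Benjamini-Hochberg adjusted p under 0.05 over the 12837 genes tested. The groups also differed as libraries. Reads that aligned to several places were 38.7 to 39.2% of the tallied reads in delta45 and 50.6 to 53.3% in control, and reads outside genes were 5.48 to 6.13% against 3.0 to 3.19%. The values did not overlap in either case, with an exact two-sided permutation p of 0.1, the smallest that 3 against 3 libraries can give. Genes with near-identical copies lose reads through such alignments, and how far this difference enters their changes was not tested.

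Ldb1 (ENSMUSG00000025223) mRNA was at the control level in delta45 cells. The control libraries had 743, 773 and 637 CPM and the delta45 libraries 750, 781 and 764 CPM, so the groups overlapped. The log2 change was 0.09 ± 0.15 with a 95% interval of −0.23 to 0.42 (adjusted p = 0.607). KD cells had 129.5 CPM and FL cells 3439 CPM, and delta45 differed from both (adjusted p = 1.03e-07 and 1.25e-07). Ldb1 reads in delta45 cells can come from the construct or the endogenous gene, and a gene total does not separate them. The label of the group is therefore checked only as far as the knockdown level being exceeded.

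Against this level of Ldb1 mRNA, 8271 of 12837 genes (64.4%) were called different between delta45 and control cells. Of all tested genes 31.9% were higher in delta45 (4096 genes) and 32.5% lower (4175 genes). The falls reached further than the rises. Of the called genes, 412 rose and 976 fell more than 4-fold, 122 rose and 550 fell more than 8-fold, and 48 rose and 240 fell more than 32-fold. The median change over all tested genes was 0.01, and the lower and upper quartiles were −0.70 and 0.63 on the log2 scale. The libraries of the groups did not overlap for 74.5% of tested genes (37.4% with delta45 higher and 37.1% with delta45 lower). Delta45 also differed from KD at 59.9% of tested genes (29.2% higher and 30.7% lower) and from FL at 52.8% (27% higher and 25.8% lower). The counts given below for a gene list are to be read against these background shares.

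**Figure D1:**
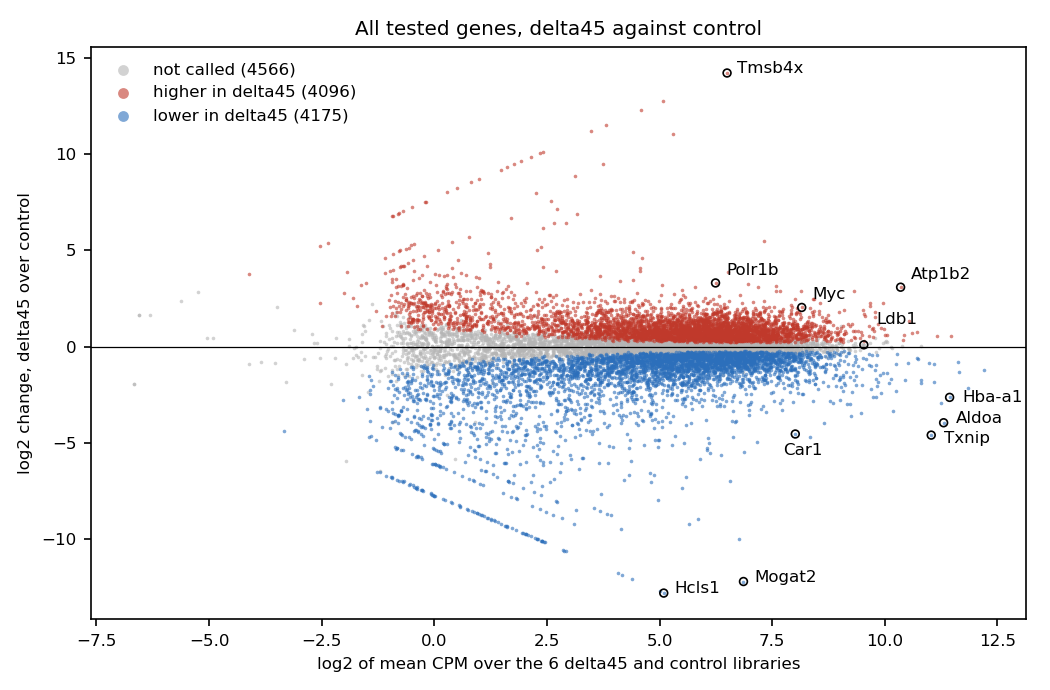
Each point is 1 tested gene, with the log2 of its mean CPM over the 6 libraries on the horizontal axis and its log2 change (delta45 over control) on the vertical axis; red genes were called higher (4096), blue genes lower (4175) and grey genes not called, and 3 genes without a read in these libraries are not drawn. Ldb1 lies near 0, the blue points reach farther down at moderate levels than the red points reach up, and the straight diagonal streaks are genes with 0 or a few reads in 1 group, whose fitted change is no measure of size.

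The gene lists departed from this background in opposite directions. Of the 39 lists described, 30 of the 32 ribosome biogenesis and MYC target genes and 32 of the 37 DNA replication genes were higher in delta45. At the other end, 30 of the 35 tested glycolysis and hypoxia response genes, 28 of the 37 cytosolic ribosomal protein genes and 6 of the 7 tested globin genes were lower. The lists of erythroid maturation were mixed. All lists were drawn up with earlier results of these data known, so their directions are descriptions and carry no test of their own.

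**Figure D2:**
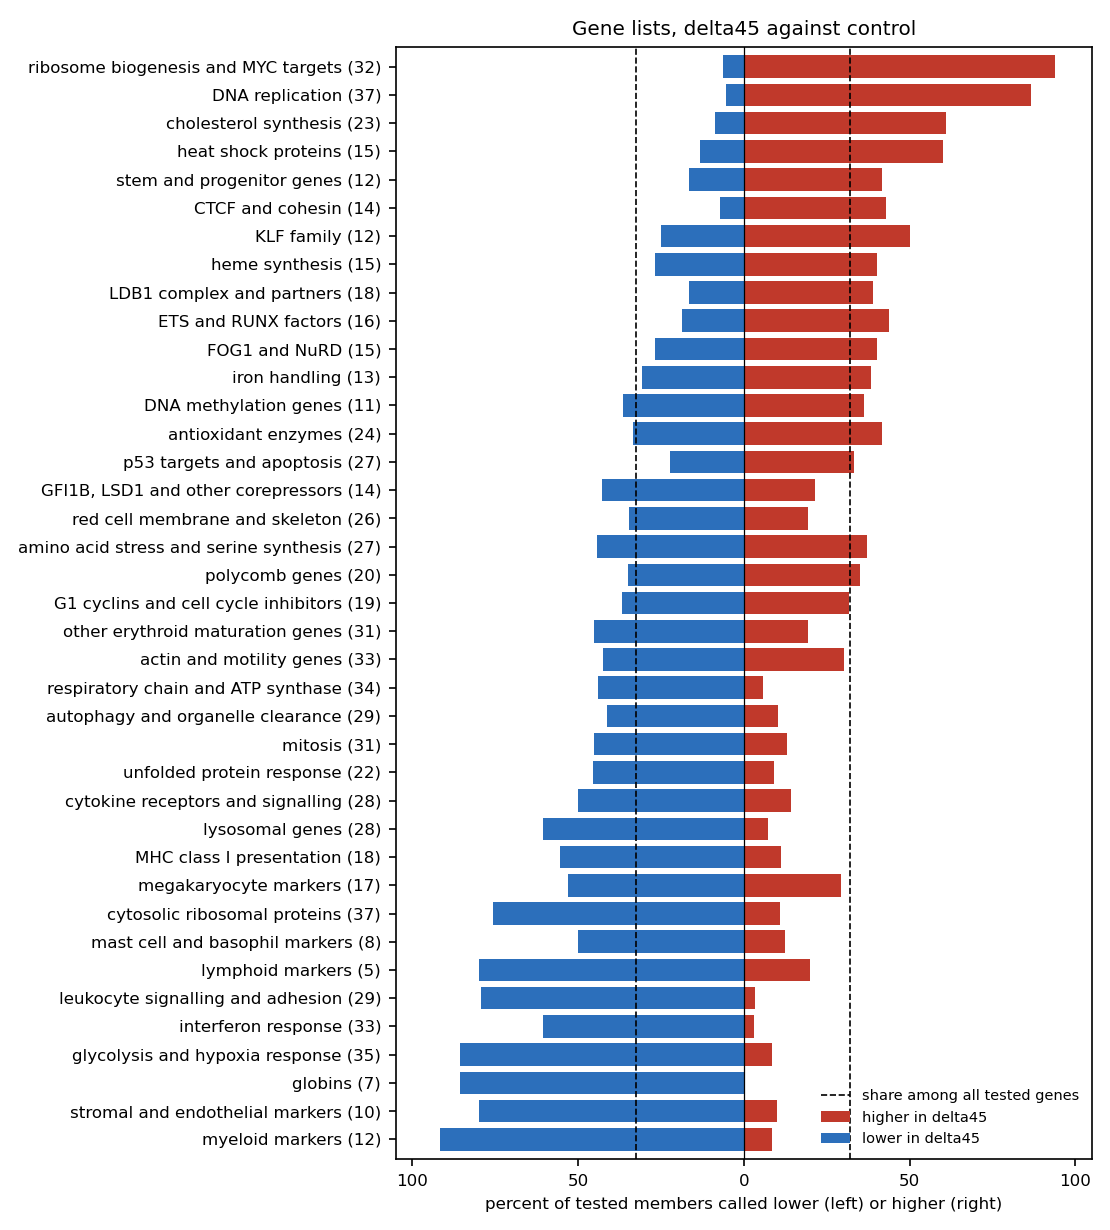
Bars show, for each gene list, the percent of its tested members (number in brackets) called higher in delta45 (red, right) or lower (blue, left) at an adjusted p under 0.05, with lists in order of their median change; dashed lines mark the shares among all tested genes, 31.9% higher and 32.5% lower. Ribosome biogenesis and DNA replication genes stand far beyond the right line and globins, glycolysis and hypoxia genes and myeloid markers far beyond the left line, while heme synthesis and iron handling lie nearer to both lines.

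Globin mRNA was low in delta45 cells. Hba-a1, an adult alpha-globin gene, had 5005, 4667 and 4669 CPM in the control libraries and 629, 807 and 871 CPM in the delta45 libraries. It was 6.22-fold lower (log2 −2.64 ± 0.23, adjusted p = 7.4e-07). Hbb-bs, an adult beta-globin gene, had 2055, 2196 and 2240 CPM in control and 627, 653 and 645 CPM in delta45, a log2 change of −1.75 ± 0.35. The other adult beta-globin gene, Hbb-bt, fell further, from 1125 ± 25.6 to 94.0 ± 15.3 CPM (log2 −3.58 ± 0.18). In all 3 genes every delta45 library was below every control library. The embryonic gene Hba-x and the theta-globin gene Hbq1b were also lower (log2 −4.74 and −1.67), whereas Hbq1a, at under 1 CPM, was not called (adjusted p = 0.465). Globin reads made up 0.162 ± 0.018% of gene reads in delta45 and 0.831 ± 0.010% in control, a ratio of 5.13 that had no overlap between libraries (exact permutation p = 0.1). As a share of all tallied reads the ratio was 4.17. Reads of the near-identical pairs Hba-a1/Hba-a2 and Hbb-bs/Hbb-bt can be assigned to the wrong copy or lost, so the sizes for single copies are uncertain.

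The globin level in delta45 was near that of the knockdown alone, at a control-like rather than a knockdown-like level of Ldb1 mRNA. Hba-a1 was at 769 ± 125 CPM in delta45 and 843 CPM in KD, a difference that did not pass the test (adjusted p = 0.62). Hbb-bs was higher in delta45 than in KD (642 against 269 CPM, adjusted p = 0.00743) and Hbb-bt lower (94.0 against 346 CPM, adjusted p = 1.95e-06). The balance of reads counted for these near-identical genes thus differed between the lines. Whether the balance of their mRNAs did was not tested, as reads can be assigned to the wrong copy or lost. In FL cells Hba-a1 stood at 9624 CPM and Hbb-bs at 9582 CPM, and all 7 tested globin genes were lower in delta45 than in FL.

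Heme synthesis did not move as a whole. Of 15 tested genes, 6 were higher and 4 lower, close to the background shares; without delta45 replicate 2 the lower count was 2. Alas2, the erythroid form of the first enzyme of the pathway, had 1513, 1639 and 1743 CPM in control and 309, 289 and 318 CPM in delta45, a 5.34-fold fall without overlap (log2 −2.42 ± 0.18, adjusted p = 1.97e-07). KD cells had 488 CPM and FL cells 5166 CPM. Ppox, a late enzyme of the pathway, fell from 248 ± 17.3 to 79.9 ± 4.4 CPM. Uros, which closes the tetrapyrrole ring, went the other way, from 13.7 ± 1.6 to 75.7 ± 1.8 CPM (5.48-fold). Alas1, the form of the first enzyme found in most tissues, rose 1.47-fold, and the heme exporter gene Flvcr1 rose 2.66-fold. Fech, which inserts the iron, fell by 0.29 on the log2 scale, a call that was lost when delta45 replicate 2, delta45 replicate 3 or control replicate 3 was left out (adjusted p = 0.107 to 0.139), with library totals as the only scaling (0.0663) or with no filter on low counts (0.0695). The count of lower members was 2 without delta45 replicate 2.

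Iron uptake genes were split. Tfrc, the transferrin receptor of dividing and hemoglobin-making cells, rose from 849 ± 374 to 2120 ± 318 CPM (log2 1.32 ± 0.24). Its control libraries were uneven, at 633, 634 and 1281 CPM, but all lay below the delta45 libraries at 2485, 1913 and 1961 CPM. Tfr2, the second transferrin receptor, fell 4.05-fold, from 124 to 30.6 CPM. Fth1, the ferritin heavy chain, and Ncoa4, which delivers ferritin for breakdown, were lower (log2 −0.57 and −1.09). In all, 5 of 13 tested iron genes were higher (38.5%) and 4 lower (30.8%), near the background shares of 31.9% and 32.5%.

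Among red cell membrane and skeleton genes 5 of 26 were higher (19.2%) and 9 lower (34.6%), with a median change of −0.03. The shares among all tested genes were 31.9% and 32.5%. Slc4a1, the anion exchanger band 3, had 43.3, 69.8 and 59.5 CPM in control and 2.06, 1.79 and 2.12 CPM in delta45 (28.8-fold lower, log2 −4.85 ± 0.52). The glucose transporter Slc2a1 and the adducin gene Add2 fell 11.6-fold and 9.62-fold, and the water channel Aqp1 fell from 1451 ± 111 to 356 ± 14.5 CPM. Ank1, the ankyrin that ties the skeleton to the membrane, was higher instead, at 615, 612 and 621 CPM against 242, 240 and 244 CPM in control. The urea transporter gene Slc14a1 was also higher, 2.52-fold.

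Of 31 other erythroid maturation genes, 6 were higher (19.4%) and 14 lower (45.2%), against 31.9% and 32.5% of all tested genes (median −0.12). Car1, carbonic anhydrase 1, had 515, 409 and 561 CPM in control and 22.4, 21.6 and 19.8 CPM in delta45 (23.3-fold lower, adjusted p = 3.91e-10). Its level was 2.72 CPM in KD and 0.28 CPM in FL, so delta45 was below control and above both other lines. Car2, carbonic anhydrase 2, rose 1.58-fold, from 423 ± 6.5 to 668 ± 18.4 CPM. Hebp1, a heme-binding protein, fell 5.88-fold, and Pklr, the red cell pyruvate kinase, fell 2.42-fold from 94.0 to 38.9 CPM. Mt2, a metallothionein, fell 10.8-fold. Cited2, a transcriptional co-regulator, rose 4.02-fold.

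Promoters of 3 erythroid genes that fell are printed to show the GATA motif that the LDB1 complex is known to sit on, chosen after their values were seen. Each is 300 bases from RefSeq on GRCm38.p6, 250 before the annotated start to 50 after it, written along the gene's strand. Capitals mark AGATAA on either strand (TTATCT on the other), or the composite CTG followed by 8 or 9 bases and AGATAA, which contains AGATAA.
Alas2 (chrX:150547167-150547466, plus strand): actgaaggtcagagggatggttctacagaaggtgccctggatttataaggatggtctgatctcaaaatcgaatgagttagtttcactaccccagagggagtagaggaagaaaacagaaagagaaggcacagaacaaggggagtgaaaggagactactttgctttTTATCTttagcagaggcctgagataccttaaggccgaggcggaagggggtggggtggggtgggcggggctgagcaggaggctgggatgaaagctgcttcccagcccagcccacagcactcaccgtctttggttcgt
Pklr (chr3:89135892-89136191, plus strand): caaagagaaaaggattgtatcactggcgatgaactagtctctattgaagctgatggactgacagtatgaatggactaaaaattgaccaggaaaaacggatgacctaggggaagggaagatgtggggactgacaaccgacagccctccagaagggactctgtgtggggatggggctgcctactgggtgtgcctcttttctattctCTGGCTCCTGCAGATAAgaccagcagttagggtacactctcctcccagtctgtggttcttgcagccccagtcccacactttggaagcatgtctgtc
Kel (chr6:41704276-41704575, minus strand): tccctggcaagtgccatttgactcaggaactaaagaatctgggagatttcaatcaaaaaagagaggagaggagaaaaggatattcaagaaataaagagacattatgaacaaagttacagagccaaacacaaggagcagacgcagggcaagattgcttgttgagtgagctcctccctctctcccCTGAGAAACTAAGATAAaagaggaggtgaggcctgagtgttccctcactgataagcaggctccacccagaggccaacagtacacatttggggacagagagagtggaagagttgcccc
The Alas2 window held 1 AGATAA and no composite motif, and the windows of Pklr and Kel held 1 composite motif each. Kel, the Kell blood group protease, fell 1.68-fold, from 98.7 ± 7.7 to 58.9 ± 3.0 CPM. Pklr has 2 entries in the table, and the first is shown. AGATAA was present in 11.4% of 27025 promoter windows and in 6.53% of the 9094 windows of tested genes. It was in 6 of 20 windows of the red cell membrane list and in 6 of 26 of the other erythroid genes. Of the tested holders in these lists that are not printed, Tpm3, Tal1 and Trim10 were higher in delta45 and Hemgn was lower. Epb42, which held a composite motif, and Rhd, Mpp1, Epor and Bcl2l1 were not called. Among globins 2 of 9 windows held AGATAA, with Hbb-bs among them and Hba-a1 not. Among all tested genes the share was 6.13% for those higher in delta45, 6.86% for those lower and 6.60% for those not called. For changes over 4-fold the share was larger on both sides, 10.2% of 246 higher genes and 8.92% of 673 lower genes. The composite was in 0.640% of all windows, and in 0.536% of genes lower and 0.233% of genes higher in delta45. A match is a description of these letters. Enhancers, where the LDB1 complex is best known to bind, lie outside such windows.

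The partners of LDB1 changed in both directions. Of 18 tested genes of the complex and its partners, 7 were higher (38.9%) and 3 lower (16.7%), with a median of 0.23. Among all tested genes 31.9% were higher and 32.5% lower, so the list was called no more often than the background. Gata1, the erythroid GATA factor, had 852, 868 and 763 CPM in control and 465, 481 and 474 CPM in delta45, a 1.75-fold fall without overlap (log2 −0.81 ± 0.15, adjusted p = 3.68e-04). It was also lower in delta45 than in KD (764 CPM) and FL (928 CPM). Gata2, the GATA factor of progenitors, rose from 12.9 ± 0.8 to 32.9 ± 3.0 CPM. KD and FL had still more of it, 58.7 and 58.8 CPM. Tal1 and Lmo2 rose 1.43-fold and 1.54-fold. The call of Tal1 was lost on leaving out delta45 replicate 1, control replicate 1 or control replicate 2 (adjusted p = 0.0518 to 0.0854). The LIM-only gene Lmo4 fell 1.91-fold, Ssbp4, from the family of proteins that stabilise LDB1, fell by 1.17 on the log2 scale, and the LDB1-degrading ubiquitin ligase gene Rlim rose by a log2 of 1.04. Klf1, the erythroid Krüppel-like factor, overlapped between the groups, at 200, 224 and 194 CPM against 177, 252 and 258 CPM (log2 0.15, 95% interval −0.36 to 0.67).

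FOG1, encoded by Zfpm1, binds GATA1 and recruits the NuRD corepressor. Zfpm1 had 998, 1041 and 864 CPM in control and 758, 1015 and 985 CPM in delta45, and the test found no difference (log2 −0.07, 95% interval −0.44 to 0.29). Of 15 genes of FOG1 and NuRD, 6 were higher (40%) and 4 lower (26.7%), against 31.9% and 32.5% of all tested genes. The remodelling ATPase Chd4 rose from 489 ± 12.3 to 872 ± 24.4 CPM, and the deacetylase Hdac2 rose 1.63-fold. The methyl-binding subunit gene Mbd2 and the 3 genes Mta1, Mta2 and Mta3 fell by 0.41 to 0.90 on the log2 scale. Of 14 other corepressor genes 3 were higher and 6 lower. Gfi1b, an erythroid repressor that recruits LSD1, fell 1.41-fold, a call that was lost without delta45 replicate 1 or 2 (adjusted p = 0.0504 to 0.0899). Rcor2, a CoREST subunit, fell from 101 ± 11.4 to 31.2 ± 4.8 CPM. Cbx5, a heterochromatin protein, rose 2.77-fold.

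Genes of glycolysis and the hypoxia response were low in delta45 cells. Of 35 tested genes 30 were lower and 3 higher, with a median log2 change of −2.30 against 0.01 over all tested genes. Aldoa, the glycolytic aldolase, had 4901, 5407 and 3958 CPM in control and 279, 314 and 328 CPM in delta45. It fell 15.5-fold (log2 −3.95 ± 0.23, adjusted p = 2.49e-08). Lactate dehydrogenase Ldha fell 6.12-fold, from 1544 ± 204 to 252 ± 7.7 CPM, and the pyruvate kinase Pkm fell 4.93-fold, from 2017 ± 318 to 409 ± 2.4 CPM. Gpi1, the second enzyme of glycolysis, went from 819 ± 73.2 to 107 ± 8.9 CPM. Each delta45 library was below each control library in these 4 genes. The hexokinase gene Hk1 and the phosphofructokinase gene Pfkp, which act early in the pathway, were not called, at 640 against 525 CPM and 188 against 211 CPM.

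Genes known as targets of the hypoxia-inducible factors that do not catalyse glycolysis fell as well. The collagen prolyl hydroxylases P4ha1 and P4ha2 fell 7.17-fold and 8.07-fold. Bnip3, a mitophagy receptor, had 165, 181 and 227 CPM in control and 7.22, 7.28 and 7.80 CPM in delta45 (25.7-fold lower). Ankrd37 had 124, 132 and 98.0 CPM in control and close to 2 CPM in each delta45 library, from 1.97 to 2.12 (57.6-fold lower). Ndrg1, a stress-induced gene, fell 7.87-fold, and the angiogenic factor Vegfa fell 3.87-fold. Hif1a, the oxygen-regulated subunit itself, was higher, at 101 ± 12.6 against 55.1 ± 11.2 CPM, as was Pfkfb3 (log2 0.52). Egln3, an oxygen sensor, was called on 0 control reads and at most 0.14 CPM in a delta45 library, a call that was lost by DESeq2 (adjusted p = 0.0532) and whenever a control library or delta45 replicate 1 or 2 was left out (adjusted p = 0.0699 to 0.122). Egln3 had 64.8 CPM in KD cells, and 159 CPM in FL. Txnip, which restrains glucose uptake and is not in the list, fell 24.2-fold, from 4246, 3296 and 4507 CPM to 165, 167 and 167 CPM.

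The same genes were low in delta45 beside the other lines too. Against KD 31 of the 35 genes were lower and 2 higher (median −2.43), and against FL 31 were lower and 1 higher (median −2.04). Aldoa had 2932 CPM in KD cells, and 3776 CPM in FL, Ldha at 1696 and 1529 CPM, and Ndrg1 at 553 and 160 CPM. In these 3 genes the delta45 libraries were the lowest of the 12. Culture conditions such as density, oxygen and medium are not in the labels, and their part in this result was not tested.

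**Figure D3:**
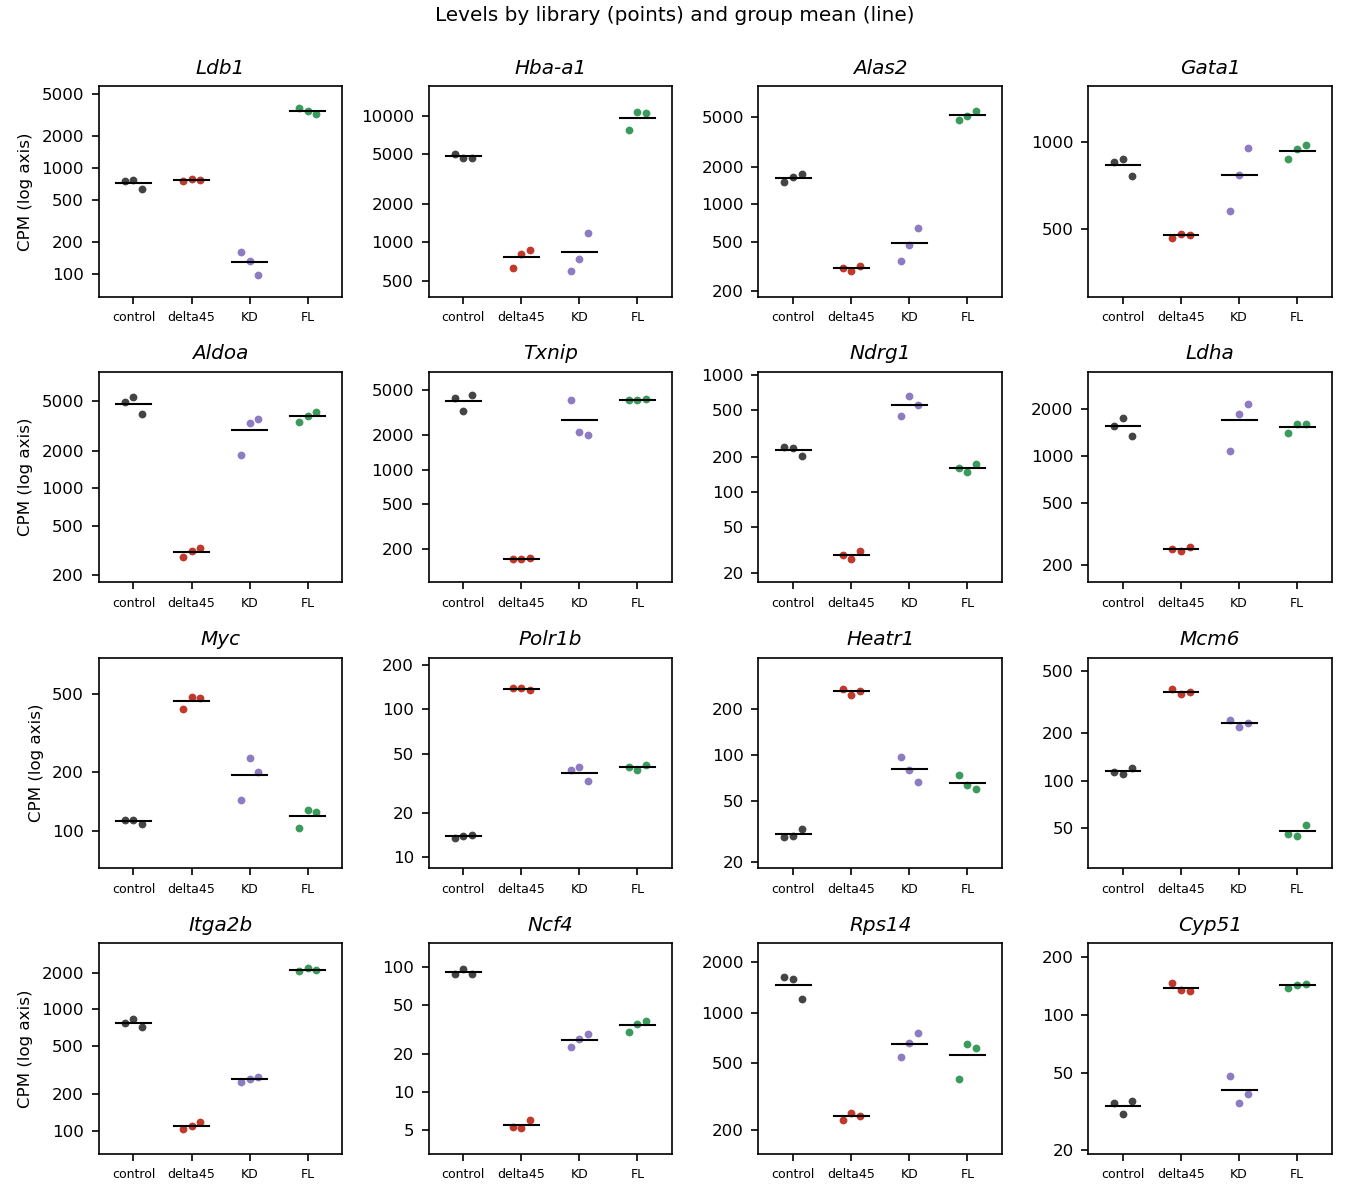
CPM of 16 genes in each of the 12 libraries (points, log axes) with group means (lines), for control, delta45, KD and FL. Ldb1 in delta45 lies at the control level; Hba-a1 and Alas2 lie near or below KD; Aldoa, Txnip, Ndrg1, Ldha and Gata1 are lowest in delta45; Myc, Polr1b, Heatr1 and Mcm6 are highest in delta45.

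Ribosome biogenesis genes and other classical MYC targets rose together. All 32 listed genes were called, 30 of them higher and 2 lower (Ldha and Polr1c), with a median log2 change of 1.39. The call of Polr1c was lost on leaving out any delta45 library or control replicate 1 or 2 (adjusted p = 0.074 to 0.149). Myc, the transcription factor that drives growth and that falls as MEL cells mature, had 113, 114 and 109 CPM in control and 419, 479 and 477 CPM in delta45 (4.10-fold higher, log2 2.03 ± 0.16, adjusted p = 2.47e-07). KD cells had 193 CPM and FL cells 119 CPM, and delta45 was above both (adjusted p = 2.52e-05 and 3.58e-07). Polr1b and Polr1a, the large subunits of RNA polymerase I, rose 9.89-fold and 6.26-fold. The libraries of Polr1b were tight, at 13.5, 13.9 and 14.2 CPM against 140, 138.5 and 134.5 CPM. Heatr1, a factor for making the small subunit, rose from 30.6 ± 2.0 to 260 ± 11.2 CPM, and Nop56, a core protein of box C/D particles, rose 4.22-fold. The translation helicase gene Eif4a1 rose 5.16-fold. Against KD 26 of these 32 genes were higher in delta45 and against FL 29.

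Promoters of 3 of these genes are printed, again chosen after their values were seen, because they hold the E-box CACGTG that MYC and other basic helix-loop-helix factors bind. The source, length and orientation are as above, and capitals mark CACGTG, which reads the same on both strands.
Utp20 (chr10:88826765-88827064, minus strand): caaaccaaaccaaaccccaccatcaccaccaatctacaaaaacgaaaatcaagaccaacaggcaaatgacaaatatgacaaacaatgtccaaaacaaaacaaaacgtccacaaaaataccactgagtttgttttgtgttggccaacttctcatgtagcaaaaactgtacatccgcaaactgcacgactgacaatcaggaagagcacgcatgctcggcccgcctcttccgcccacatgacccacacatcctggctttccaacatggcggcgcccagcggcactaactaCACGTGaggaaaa
Wdr43 (chr17:71615965-71616264, plus strand): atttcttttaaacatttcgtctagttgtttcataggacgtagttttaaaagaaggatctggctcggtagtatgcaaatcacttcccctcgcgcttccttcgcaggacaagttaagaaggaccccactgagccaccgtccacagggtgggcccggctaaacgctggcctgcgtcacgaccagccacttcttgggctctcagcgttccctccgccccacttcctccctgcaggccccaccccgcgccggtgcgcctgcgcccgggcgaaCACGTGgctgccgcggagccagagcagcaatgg
Nop2 (chr6:125131633-125131932, plus strand): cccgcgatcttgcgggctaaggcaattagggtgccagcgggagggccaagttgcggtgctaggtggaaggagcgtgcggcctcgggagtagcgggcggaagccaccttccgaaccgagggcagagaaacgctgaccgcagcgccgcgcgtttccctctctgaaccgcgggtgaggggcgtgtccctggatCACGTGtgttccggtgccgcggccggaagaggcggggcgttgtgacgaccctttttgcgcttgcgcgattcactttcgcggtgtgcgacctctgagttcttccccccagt
Utp20, a small-subunit processing factor, rose 7.67-fold, from 10.4 ± 0.5 to 79.6 ± 3.7 CPM. Wdr43 rose 3.18-fold, and the ribosomal RNA methyltransferase gene Nop2 rose 2.98-fold. Each of the 3 windows held 1 CACGTG. It was present in 9 of the 27 list genes with a window (33.3%), against 10.4% of tested genes and 7.24% of all windows. Over all tested genes it was in 12.5% of those higher in delta45, 8.47% of those lower and 10.2% of those not called. The list was compiled from known MYC targets, and its share of E-boxes is a description only.

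Cytosolic ribosomal protein genes moved against the biogenesis genes. Of 37 genes 28 were lower and 4 higher (median −1.29), and their summed level fell from 22870 to 8161 CPM. Rps14, of the small subunit, had 1623, 1594 and 1200 CPM in control and 230.5, 254 and 242 CPM in delta45 (6.08-fold lower). Rpl22, of the large subunit, fell 3.20-fold. The 4 higher genes, Rpl3, Rpl5, Rpl10 and Rps18, were at low levels, Rpl10 highest with 25.2 CPM in delta45; Rps18 was not called without control replicate 3 (adjusted p = 0.0539). Ribosomal protein genes have many processed copies in the genome, and reads that align to several places are not counted. How many reads these genes lost in each group was not measured. Eef2, which moves the ribosome along the mRNA, and Rack1, a protein of the small subunit, fell 2.36-fold and 2.52-fold. Pabpc1, the cytoplasmic poly(A)-binding protein, rose 1.46-fold.

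**Figure D4:**
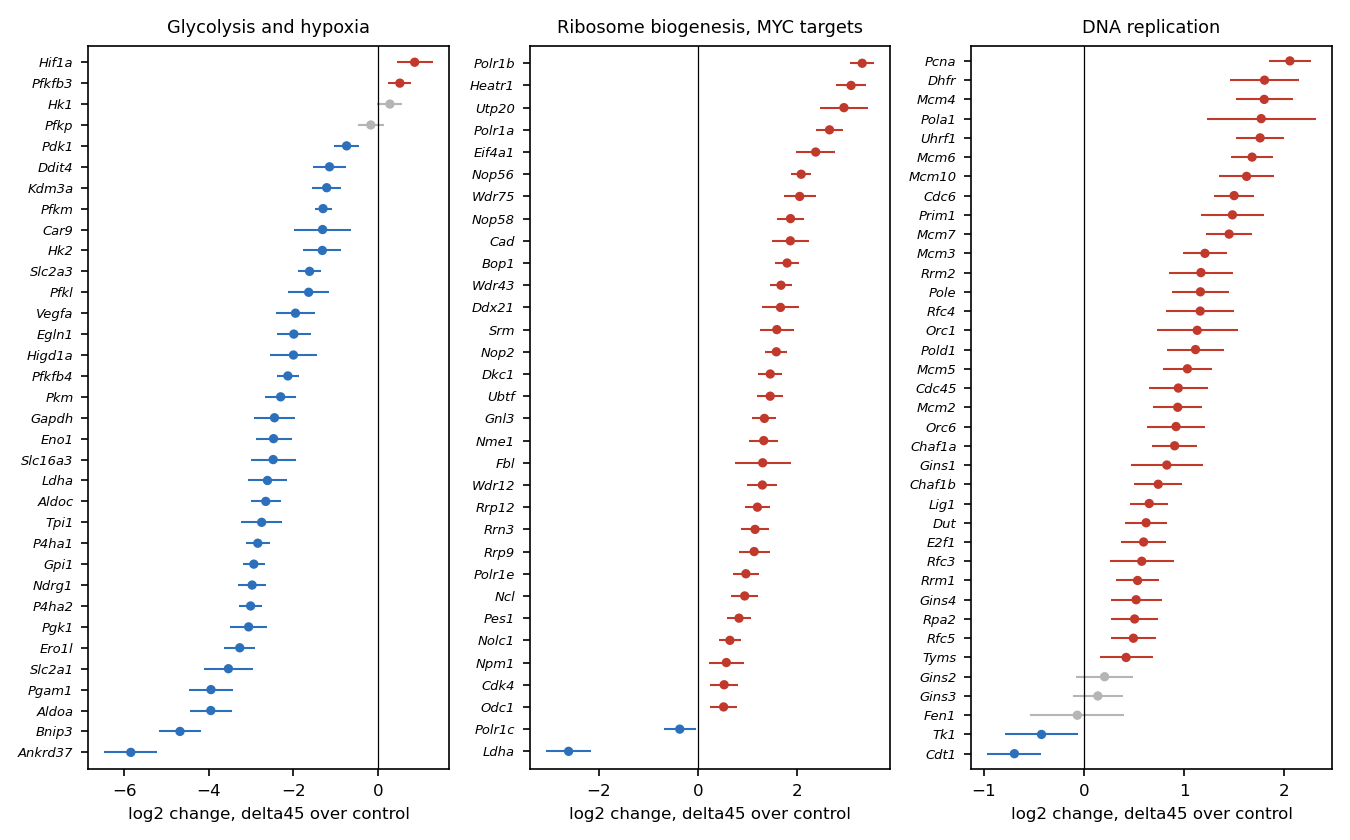
Log2 change (delta45 over control) with its 95% interval for each tested member of 3 lists, coloured red where called higher, blue where called lower and grey where not called; Egln3, without control reads, is left out. In the first panel 30 genes lie below 0 and are called, in the second 30 lie above 0 and are called, and in the third 32.

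DNA replication genes rose, while mitosis genes did not. Of 37 replication genes 32 were higher and 2 lower (Cdt1 and Tk1), with a median of 0.94. The call of Tk1 was lost on leaving out any delta45 library or control replicate 1 or 2 (adjusted p = 0.0618 to 0.156). Pcna, the sliding clamp, had 68.4, 68.2 and 64.6 CPM in control and 277, 289 and 269 CPM in delta45 (4.15-fold higher, adjusted p = 4.41e-09). Mcm6 and Mcm4, subunits of the replicative helicase, rose 3.20-fold and 3.48-fold. Cdc6, which loads that helicase, rose 2.83-fold, and Uhrf1, which keeps DNA methylation through replication, rose 3.38-fold. Of 31 mitosis genes, by contrast, 4 were higher (Ccnb1, Mki67, Ttk and Ndc80) and 14 lower, with a median of −0.25. Ttk was not called without delta45 replicate 1 or control replicate 1 or 2 (adjusted p = 0.0538 to 0.103). Cenpa, the centromeric histone, fell from 492 ± 16.5 to 89.8 ± 8.8 CPM. Anln, which acts in cytokinesis, fell 3.31-fold.

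Beside the other lines, the cell cycle genes took a different order. All 37 replication genes were higher in delta45 than in FL (median 2.54), and 21 were higher than in KD. Of the mitosis genes 30 were higher than in FL and 22 higher than in KD. Over all tested genes the shares were 27% higher than in FL and 29.2% higher than in KD. Mcm6 stood at 115 CPM in control, 368 in delta45, 232 in KD and 47.4 in FL. Among 19 G1 cyclins and inhibitors 6 were higher (31.6%) and 7 lower (36.8%) in delta45 than in control. These shares were near those of all tested genes, 31.9% and 32.5%. The kinase inhibitor genes that were called were all lower: Cdkn1b fell 3.61-fold, from 203 ± 30.5 to 56.2 ± 5.0 CPM, and Cdkn1c, Cdkn2a, Cdkn2b and Cdkn2c fell by 0.95 to 1.27 on the log2 scale. Rbl1, the p107 pocket protein, rose 3.77-fold. Of the E cyclins, Ccne2 rose and Ccne1 fell (log2 1.41 and −1.19). Reads of bulk RNA do not separate a change in the share of cycling cells from a change in RNA per cell.

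Cholesterol synthesis genes were raised. Of 23 genes 14 were higher and 2 lower (median 0.93); the lower count was 1 on leaving out any delta45 library or control replicate 1 or 2. Cyp51, the lanosterol demethylase, had 35.1, 30.7 and 35.8 CPM in control and 147, 135 and 133.5 CPM in delta45 (4.08-fold higher). Sqle, the squalene epoxidase, rose 2.18-fold. Fasn, the fatty acid synthase and no member of the list, rose from 307 ± 25.5 to 1324 ± 95.3 CPM. Against KD 19 of the 23 genes were higher, whereas against FL 7 were higher and 2 lower. Over all tested genes 29.2% were higher than in KD, and 27% were higher and 25.8% lower than in FL. The mean of Cyp51 was 138.5 CPM in delta45, 142 CPM in FL and 40.9 CPM in KD.

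Chaperones rose in part. Of 15 tested heat shock genes 9 were higher and 2 lower (Hspa9 and Stip1); Hspa9 was not called without delta45 replicate 2 or 3 or control replicate 1 or 2 (adjusted p = 0.0908 to 0.13). Hsp90aa1, the inducible cytosolic HSP90, rose from 104 ± 2.3 to 424.5 ± 12.4 CPM, and the mitochondrial chaperonin gene Hspd1 rose 2.98-fold. KD and FL cells had 340 and 333 CPM of Hsp90aa1, and 136 and 73.2 CPM of Hspd1 beside 258 CPM in delta45. The summed level of the list averaged 3984 CPM in control, 5983 in delta45, 5730 in KD and 5631 in FL, so the summed rise was not particular to delta45. The unfolded protein response of the endoplasmic reticulum went the other way, with 10 of 22 genes lower and 2 higher (median −0.27); Atf6, a sensor of that response, fell by 1.12 on the log2 scale. Amino acid stress and serine synthesis genes divided into 10 higher and 12 lower. The amino acid transporter genes Slc7a5 and Slc38a2 rose 3.21-fold and 4.77-fold, Slc38a2 reaching 1348 CPM, while Asns, which makes asparagine, fell 2.11-fold. Antioxidant genes were even, at 10 higher (41.7%) and 8 lower (33.3%) of 24, against 31.9% and 32.5% of all tested genes. Srxn1 rose 3.58-fold and Prdx5 fell 4.44-fold.

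Genes of other blood cells were lower in delta45. Of 29 tested leukocyte signalling and adhesion genes 23 were lower and 1 higher (Cd44), with a median of −1.65. Against KD 6 were higher and 11 lower in delta45 (median −0.16), and against FL 8 were higher and 11 lower (median 0). Their summed level averaged 2282 CPM in control, 1085 in delta45, 1583 in KD and 2061 in FL. Itgal, the alpha chain of the integrin LFA-1, had 97.1, 94.5 and 95 CPM in control and 0.70, 0.70 and 1.29 CPM in delta45 (109-fold lower). KD and FL cells had 0.71 and 0.79 CPM, so control was the group that stood apart. Itgb2, its partner chain, and Was, an actin regulator of blood cells, fell 6.93-fold and 3.88-fold. Of 12 tested myeloid genes 11 were lower and 1 higher (Cd68); the NADPH oxidase subunit gene Ncf4 fell 16.7-fold, and the lysosomal membrane gene Laptm5 fell from 443 ± 28.9 to 59.8 ± 4.4 CPM. Laptm5, unlike Itgal, was near the control level in KD (431 CPM) and FL (355.5 CPM). Spi1, which encodes the ETS factor PU.1 and is activated by the integrated virus in many Friend virus erythroleukemias, had 57.3, 62.5 and 47.4 CPM in control and 2.39, 3.51 and 3.03 CPM in delta45 (18.8-fold lower).

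Of 17 tested megakaryocyte genes 9 were lower and 5 higher. Itga2b, the alpha chain of the platelet fibrinogen receptor and a known GATA1 target, had 774, 829.5 and 720 CPM in control and 103, 109 and 117 CPM in delta45 (7.06-fold lower, adjusted p = 5.5e-10). KD was between, at 266.5 CPM, and FL above, at 2136 CPM. Its partner chain Itgb3 and the chemokine gene Pf4 fell by 2.22 and 1.53 on the log2 scale. Tubb1, the platelet beta-tubulin, had 336 reads over the control libraries and 2 over the delta45 libraries, a ratio of 232 with a counting interval of 63.8 to 1924. Gp1ba, Gp5, Fli1, Rab27b and F2r were higher (log2 0.42 to 1.27); this count of 5 was 3 without delta45 replicate 1 or control replicate 2, and 2 without delta45 replicate 2 or control replicate 1. Of the remaining marker lists, 4 of 8 tested mast cell and basophil genes, 4 of 5 lymphoid genes and 8 of 10 stromal genes were lower. The summed level of the mast cell and basophil list was 113.5 to 154 CPM in control and 119 to 143 CPM in delta45. With genes under 10 CPM left out, none of its genes was lower and its median turned from −1.33 to 0.66; the megakaryocyte median turned from −0.96 to 0.32.

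The defining markers of other cell types were low beside those of erythroid cells, and several were at 0. Summed over 8 markers, the myeloid level was 8.33 to 9.34 CPM in the control libraries and 0.23 to 0.51 CPM in the delta45 libraries, with Ctsg, Csf3r and S100a8 at 0 in delta45 and Itgam and S100a8 at 0 in control. The 6 mast cell and basophil markers summed to 5.70 to 6.0 CPM and 0.98 to 1.28 CPM, and 4 of them were at 0 in delta45 and 3 in control. The 8 lymphoid markers summed to 13.6 to 15.8 and 5.56 to 6.19 CPM with 3 at 0 in delta45 and 5 in control, and the 8 stromal and endothelial markers to 38.0 to 42.8 and 11.8 to 13.5 CPM with 3 and 4 at 0. Most of the stromal sum was Pdgfrb, at 33.1 CPM in control and 11.3 CPM in delta45. The 8 megakaryocyte markers summed to 831 to 928 CPM in control and 134 to 154 CPM in delta45, most of it Itga2b. The 10 erythroid markers, none of them at 0, summed to 10690 to 11230 CPM in control and 3144 to 3492 CPM in delta45. The labelled erythroid identity was therefore present in both groups, at unequal levels. Fewer cells of a type and less RNA per cell cannot be told apart in bulk samples.

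Interferon-stimulated genes were lower, with an uncertain size. Their SEs and calls come from the fit of all 12 libraries, so they also carry the spread of the KD libraries. Of 33 tested genes 20 were lower and 1 higher (median −2.14). Oas2, an antiviral synthetase, had 239, 291 and 306 CPM in control and 8.67, 9.46 and 8.40 CPM in delta45 (log2 −4.97 ± 0.83). Irf7, the regulator that amplifies the response, fell 26.0-fold with an SE of 0.96 on the log2 scale, and Rsad2 fell 41.6-fold. In the libraries compared, Irf7 had 554.5, 686 and 618 CPM in control and 21.1, 24.2 and 26.2 CPM in delta45. Ifi27 fell 2.49-fold. Isg15 fell 7.57-fold, but its call was lost on leaving out any delta45 library (adjusted p = 0.0526 to 0.0591). The higher gene was Cmpk2, a neighbour of Rsad2 in the genome, with 0 control reads and 8.87 ± 1.0 CPM in delta45. Against KD 32 of the 33 genes were lower in delta45, and against FL 2 were lower and 0 higher. The KD libraries differed widely among themselves, with Oas2 at 26.6, 506 and 853.5 CPM and the list's summed level from 1664 to 20050 CPM. In FL cells Oas2 was at 13.6 CPM. Of 18 MHC class I presentation genes 10 were lower and 2 higher (Erap1 and Pdia3, the second not called without control replicate 2, adjusted p = 0.0552), among the lower ones H2-D1, at 559 ± 69.6 against 146 ± 3.4 CPM.

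Cytokine receptors and their signalling genes set survival and growth of blood cells. Of 28 tested genes 14 were lower, 4 higher and 10 not called (median −0.41). Csf2rb, the shared beta chain of the IL-3, IL-5 and GM-CSF receptors, fell from 1719 ± 162 to 459 ± 0.05 CPM. Its mouse paralog Csf2rb2 fell 5.20-fold, and reads of the pair may be shared. Epor, the erythropoietin receptor, was not called, at 442 ± 69.8 against 375 ± 40.8 CPM (log2 0.24, 95% interval −0.30 to 0.77). Lysosomal genes were lower in 17 of 28 cases and higher in 2 (median −0.52), with Lipa, the acid lipase, down 13.8-fold and Ctsb, a cathepsin, down 2.77-fold. Autophagy and organelle clearance genes were lower in 12 of 29 cases and higher in 3, and Pink1, which marks damaged mitochondria, fell 4.15-fold. Of 34 respiratory chain genes 15 were lower and 2 higher (Ndufs1 and Sdha), with a median of only −0.16; without delta45 replicate 1 the lower count was 8. Of 27 p53 target and apoptosis genes 9 were higher (33.3%) and 6 lower (22.2%), against 31.9% and 32.5% of all tested genes. In all 55.6% of this list was called, no more than the 64.4% of all tested genes. Bcl2l11, encoding the death activator BIM, rose 3.96-fold.

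Chromatin genes changed in both directions, 2 of the lists at shares near the background. Polycomb genes were 7 higher and 7 lower of 20 (35% each), and DNA methylation genes 4 higher and 4 lower of 11 (36.4% each). Among all tested genes 31.9% were higher and 32.5% lower. The lower count of DNA methylation genes was 2 without delta45 replicate 2 or 3 or control replicate 1. The maintenance methyltransferase Dnmt1 rose by a log2 of 0.58, Uhrf2 fell by 1.54, and Mbd1, a methyl-CpG-binding protein, had no reads in delta45. Of 14 genes of CTCF and cohesin, which hold chromatin loops, 6 were higher (42.9%) and 1 lower (Smc3, 7.14%). In all 50% of this list was called, against 64.4% of all tested genes. Ctcf had 163, 158 and 175 CPM in control and 309, 280 and 293 CPM in delta45, a 1.78-fold rise, against 120 CPM in KD and 241 CPM in FL. Stag1 and the loader gene Nipbl rose by log2 1.30 and 0.94. The calls of Smc3 and Yy1 were lost without delta45 replicate 3 and control replicate 1, respectively (adjusted p = 0.058 and 0.0527), and without control replicate 1 the higher count was 3. Of 12 KLF and SP factors 6 were higher and 3 lower (1 lower when any single delta45 library or control replicate 3 was left out), with Klf5 up 3.01-fold and Klf6 down 3.44-fold. Of 16 ETS and RUNX factors 7 were higher and 3 lower; Elk4 rose 3.88-fold and Spi1 was the largest fall.

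Some genes were present in only 1 of the groups. With a level of at least 5 CPM in the other group, 34 genes had no read in the delta45 libraries and 12 had none in the control libraries. The genes silent in delta45 were not at 5 CPM in KD or FL either (0 of 34), and 13 had no read in any of the 3 lines derived by knockdown. The genes silent in control were mostly present in those lines, with 10 of 12 at 5 CPM or more in both KD and FL. In this respect the control line stood on one side and all 3 knockdown lines on the other. Hcls1, a cortactin-like adaptor of blood cells, had 68.3 ± 3.4 CPM in control and no reads in delta45, KD or FL, at least 1131-fold lower against 3 reads over the delta45 group. Syk, a kinase of immune receptors, was at least 571.5-fold lower and Mbd1 at least 600.0-fold. Tmsb4x, an actin-binding thymosin on the X chromosome, had no reads in control and 185, 174 and 183.5 CPM in delta45, at least 2194-fold higher, and reached 537.5 CPM in KD and 4291 CPM in FL. Prps2, Zcchc3 and Mmp14 were likewise silent in control, at least 818.5-fold, 569-fold and 123-fold higher in delta45. These bounds cover counting error only.

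The promoters of Tmsb4x and Hcls1, are printed as examples of genes without a read in 1 of the groups. The windows are as above, and neither holds AGATAA or CACGTG, so nothing is in capitals.
Tmsb4x (chrX:167209169-167209468, minus strand): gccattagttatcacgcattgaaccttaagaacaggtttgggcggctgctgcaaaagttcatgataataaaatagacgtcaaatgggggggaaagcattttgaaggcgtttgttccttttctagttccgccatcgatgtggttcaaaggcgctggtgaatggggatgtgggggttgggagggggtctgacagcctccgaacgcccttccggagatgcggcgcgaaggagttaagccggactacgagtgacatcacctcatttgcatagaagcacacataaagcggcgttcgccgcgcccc
Hcls1 (chr16:36934733-36935032, plus strand): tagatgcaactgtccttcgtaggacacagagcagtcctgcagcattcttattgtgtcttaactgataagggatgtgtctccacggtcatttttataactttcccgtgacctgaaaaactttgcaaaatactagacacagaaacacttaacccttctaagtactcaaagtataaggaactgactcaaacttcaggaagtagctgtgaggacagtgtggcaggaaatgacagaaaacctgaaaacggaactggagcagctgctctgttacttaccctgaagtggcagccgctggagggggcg
No match says only that these letters are not in these windows.

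Genes with a read or so in 1 group ranked beside them. Tex19.1, a germ cell gene usually silenced by DNA methylation, had 1 read over the control libraries and 3956 over the delta45 libraries, a ratio of 2864 with a counting interval of 514 to 113100. It was at 78.9 CPM in delta45, 86.7 CPM in KD and 61.1 CPM in FL. Slc44a4, with 1 control read, and Hormad2, another germ cell gene with 2, were 960-fold and 215-fold higher by the same ratio (intervals 172 to 37940 and 59.4 to 1782). Scn2b, a sodium channel subunit, rose from 0.17 to 17.8 CPM. Mogat2, an acylglycerol transferase of the gut, had 244, 252 and 202 CPM in control and 2 reads over all delta45 libraries, a ratio of 5682 (interval 1572 to 46930). Cd48 and Thy1, surface proteins of lymphocytes, fell 909-fold and 559.5-fold by such ratios (intervals 251 to 7514 and 99.9 to 22150). Cox6b2, a testis form of a respiratory subunit, fell from 216 ± 6.2 to 0.20 ± 0.05 CPM.

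The largest changes in amount were among abundant genes. Atp1b2, a sodium pump subunit, had 302, 248 and 275 CPM in control and 2241, 2352 and 2416 CPM in delta45 (8.49-fold higher). Actb, beta-actin, rose from 344 ± 31.0 to 1662 ± 107 CPM, a level close to KD at 1717 CPM (adjusted p = 0.783 for delta45 against KD). Polr2a, the largest subunit of RNA polymerase II, rose 7.46-fold to 1128 ± 42.6 CPM, and Tuba4a, an alpha-tubulin, rose 3.52-fold. Of the genes of actin and motility as a list, 10 of 33 were higher and 14 lower, with Gsn, the filament-severing gelsolin, down 4.11-fold. Mknk2, a kinase of the initiation factor eIF4E, fell from 6032 ± 597 to 1361 ± 98.3 CPM and was at 1294 CPM in KD. Tmem131 fell 7.49-fold, to 575 ± 15.8 CPM, and Cers2, a ceramide synthase, fell 3.62-fold.

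Gene-wide features of the transcripts ran along with the changes. In 5 equal groups by transcript length the median log2 change rose from −0.24 in the shortest to 0.28 in the longest, and in such groups by GC content it fell from 0.29 in the lowest to −0.29 in the highest. Long and AT-rich transcripts were therefore relatively higher in delta45, by amounts that are small beside the main lists. The median of each list less that of genes of like length and GC, a correction chosen after seeing the data, was 1.39 for ribosome biogenesis, 0.96 for DNA replication, −2.03 for glycolysis and hypoxia, −2.08 for globins and −1.12 for ribosomal proteins. Where these trends come from was not tested.

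**Figure D5:**
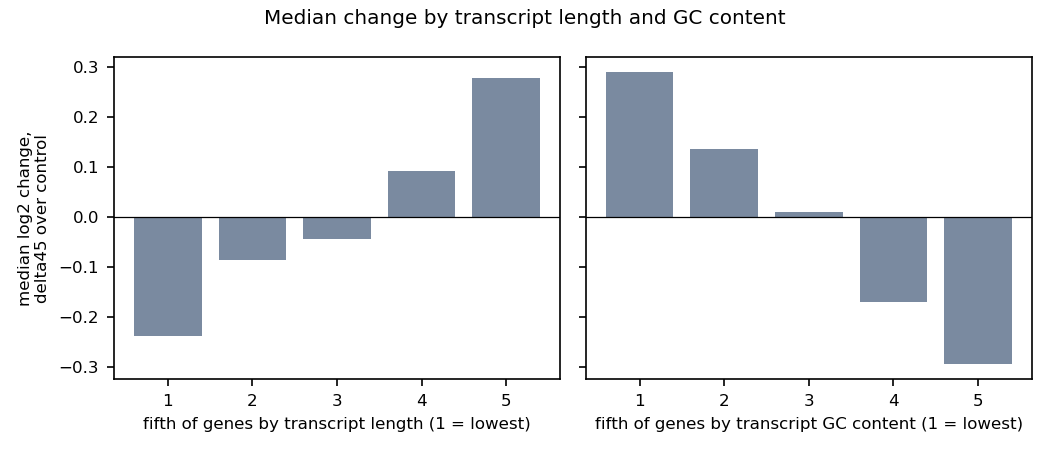
Median log2 change (delta45 over control) of tested genes in 5 equal groups by the longest annotated transcript's length (left) and GC content (right), 1 being the shortest or lowest. The bars climb from −0.24 to 0.28 with length and descend from 0.29 to −0.29 with GC content.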

How the data were processed

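Polyadenylated RNA of induced MEL cells was measured by RNA-seq in 4 groups of 3 libraries. The deposited values are whole-number counts of reads per Ensembl gene, not normalized, which the authors made with cutadapt 1.1, TopHat 1.4.1 and HTSeq 0.5.3p9 on mm9, per the submitters' processing notes. For settings and the annotation version: not given in the sources used here. TruSeq V2 libraries do not mark the strand, so overlapping and antisense genes cannot be told apart. Each file held 37991 gene rows and 5 closing rows that name no gene, which entered neither library sizes nor tests. A supplied table gave symbols for 32919 identifiers; the others held 0.589 to 0.824% of gene reads in the 6 libraries compared.

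Genes were kept by filterByExpr, which left 12837 genes. With TMM factors, edgeR 4.0.16 (glmQLFit, glmQLFTest, R 4.3.3) fitted all 12 libraries, with a mean per group. An adjusted p (Benjamini-Hochberg) under 0.05 over all tested genes was a call. SE is the absolute log2 change over the root of the F statistic. CPM were computed here from these values. For a gene without reads in 1 group the fold is given as a bound against 3 reads over the group, and for 1 to 3 reads a ratio is given with an exact 95% interval; both cover counting error only. Replicates of the delta45 and control groups correlated at 0.988 to 0.997 (Pearson, log2 CPM). Those of FL correlated at 0.993 to 0.997 and those of KD, which enter the same fit, at 0.959 to 0.982. No pair agreed within counting noise. The test was tried on simulated counts (delta45 against control, 12531 genes, 50 of them altered per fold size). It found 20% of 1.5-fold changes, 66% of 2-fold, 94% of 4-fold and 96% of 8-fold changes and made 6 false calls. Far fewer genes were altered there than the 64.4% called in the data, so these rates need not hold for this comparison.

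Members, gene lists and tests were chosen with earlier results of these data known. The 39 lists held 964 entries, of which 952 matched. The genes named are Ldb1, the globins, up to 12 genes each way by fold and 8 by CPM difference that were called, had no overlap between libraries, reached 5 CPM and had no clone, predicted-gene, pseudogene or histone name, up to 5 members of each list by adjusted p, and members of lists of up to 20 genes. Members named for being the few on 1 side of a list, and Ank1, Car2, Kel, Pkm, Ldha, Ndrg1, Vegfa, Hk1, Pfkp, Hif1a, Utp20, Nop2, Eif4a1, Mcm4, Isg15, Rpl22 and Epor, were chosen after their values were seen. Some genes are not reported here. Promoter windows came from RefSeq on GRCm38.p6 (27025 genes, 9094 of them tested); transcript length and GC content came from a supplied GENCODE annotation for 97.3% of tested genes. The alternatives were RLE scaling, library totals only, no filter and stricter filters, the 6 libraries alone, DESeq2 1.42.0, a test against a fold of 1.5, a replicate block, and leaving out each library.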

Additional observations from a re-analysis of the deposited data

How the results depend on the processing

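The count of 8271 changed genes was 8171 to 9116 over the other scalings, samples, tools and filters that kept genes under 10 CPM. With genes under 10 CPM on average left out, fewer genes were tested and 6243 were called. Leaving out 1 library each time gave 7546 to 8059 changed genes (higher 3637 to 4119, lower 3743 to 3940). The count was 8624 by DESeq2. A test against a fold of 1.5, which asks for a larger change, called 4596 genes, 2067 higher and 2529 lower. Ldb1 stayed uncalled, at log2 0.03 to 0.15. The globin ratio was 4.82 to 5.36 on leaving out 1 library. Of the 272 called genes followed by name, none changed direction, and 120 of 4052 alternative values fell short of a call, 53 of them in the test against a fold of 1.5.

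Zfpm1, which had no call, was at log2 −0.14 to 0.069 on leaving out 1 library. With genes under 10 CPM left out, which leaves few members, the median of the megakaryocyte list was 0.32 and of the mast cell and basophil list 0.66, and the lower counts were 4 of the megakaryocyte, 6 of the myeloid, 1 of the lymphoid, 0 of the mast cell and 4 of the stromal genes. The median of the stem and progenitor list was 0 by DESeq2. With only the 6 libraries in the fit, 7 heme genes were lower and 4 respiratory genes higher. Less the median change of genes of like length and GC content, an alternative chosen after seeing the data, list medians were −2.08 for globins, −2.03 for glycolysis and hypoxia, −1.12 for ribosomal proteins and 1.39 for ribosome biogenesis. The cause of these shifts was not tested. Of 1170 list counts under alternatives 1043 stayed within 1.5 times.

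Replicate numbers did not pair the libraries: deviations from the group means of same-numbered libraries correlated at −0.19, 0.16 and −0.20. The fit with a replicate block called 8408 genes, with Ldb1 at log2 0.10.

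Leaving out a library leaves 2 in its group. Depth limits the changes of genes with few reads.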

Other observations

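Genes of stem and progenitor cells gave a mixed picture. Of 12 tested genes 5 were higher in delta45 (41.7%) and 2 lower (16.7%), against 31.9% and 32.5% of all tested genes (median 0.49). A further 12 members were too low to test. Beside Myc and Gata2, the lymphoid and progenitor factor Ikzf1 rose from 150 to 282 CPM and the ETS repressor Etv6 from 48.5 to 81.9 CPM. Spi1 and Meis2 were the lower ones, Meis2 without a call on leaving out any delta45 library or control replicate 2 or 3 (adjusted p = 0.0559 to 0.188).

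Neighbouring genes were looked at in 476 windows of 25 tested genes, ordered by the RefSeq annotation of GRCm38.p6, a build other than that of the counts. Window medians ran from −1.09 to 0.94 with an SD of 0.38. In the lowest window, from Clns1a to Kcne3, 18 genes were lower and 3 higher. The highest window ran from Fbxo4 to Sub1. Whole chromosomes leaned to 1 side. All windows of chromosome 19 had negative medians, from −1.02 to −0.18. All windows of chromosomes 13 and 16 had positive medians, from 0.22 to 0.91 and from 0.11 to 0.56. The other chromosomes held windows of both signs. By ratios of group means, chromosome 19 windows ran from −0.16 to 0.42 for KD over control and from −0.71 to 0.14 for FL. The source of these shifts was not tested. Of the 25 genes of a window, at most 20 were lower and at most 19 higher. Whether windows differ beyond chance was not tested.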
